A study of Homo sapiens with 8 samples.

Results

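LNCaP-FGC, a prostate cancer line, was set against RWPE-1, the control line of the study, in DNA methylation and in gene expression. The comparison used 4 of the 8 samples of the series, chosen by their labelled cell line, with 1 array for each line in each assay. LNCaP-FGC is the fast-growing clone of LNCaP, a line grown from a lymph node metastasis of prostate carcinoma that depends on androgen for full growth. RWPE-1 comes from prostate epithelium without cancer and was made immortal with genes of a papillomavirus. Each group is therefore a single cell line, and the labels give neither line a treatment or a repeat culture. The remaining samples were DU145 and PC3, both prostate cancer lines, measured in the same way. Whether the arrays carry the markers of the labelled lines, such as androgen-regulated genes in LNCaP-FGC and basal keratins in RWPE-1, was not checked, because probes and sites carry no gene names in the tables used here.

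Methyl groups on cytosines of CpG sites are copied when DNA is replicated, and a densely methylated promoter is usually silent. Cancer cells are known both for new methylation at promoters that are free of it in normal tissue and for a loss of methylation elsewhere in the genome. A site can differ between lines in 2 ways, from one end of the scale to the other or by part of it. The same holds for a transcript, which may be at background in one line and clear in the other or present at different levels in both. The description below keeps these apart as switches and graded differences. "Gain" and "loss" stand for higher and lower in LNCaP-FGC than in RWPE-1 and say nothing of an order in time. With 1 array per line there is no replicate error, so every difference is given by size, without a p-value.

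Methylation was compared at 27565 CpG sites, which had a value on both arrays. Most sites were alike in the 2 lines. The beta value, which runs from 0 for unmethylated to 1 for fully methylated, lay within 0.1 at 66.3% of sites and within 0.05 at 58.4%, and the median difference was 0.0011. Sites at least 0.3 apart numbered 5249, or 19.0% of those compared. LNCaP-FGC was the higher line at 3222 of them (11.7% of sites) and the lower line at 2027 (7.35%). No sharp step separates differing sites from the rest, since 722 sites lay 0.3 to 0.35 apart and 786 lay 0.25 to 0.3 apart. With the betas of all 4 arrays quantile normalized, the share of gains among differing sites was 51.2% instead of 61.4%. Quantile normalization gives all arrays the same distribution of betas. With each array instead mapped linearly to common low and high levels, the share was 62.2%. The balance of gains and losses thus moved with quantile normalization and little with linear rescaling.

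**Figure D1:**
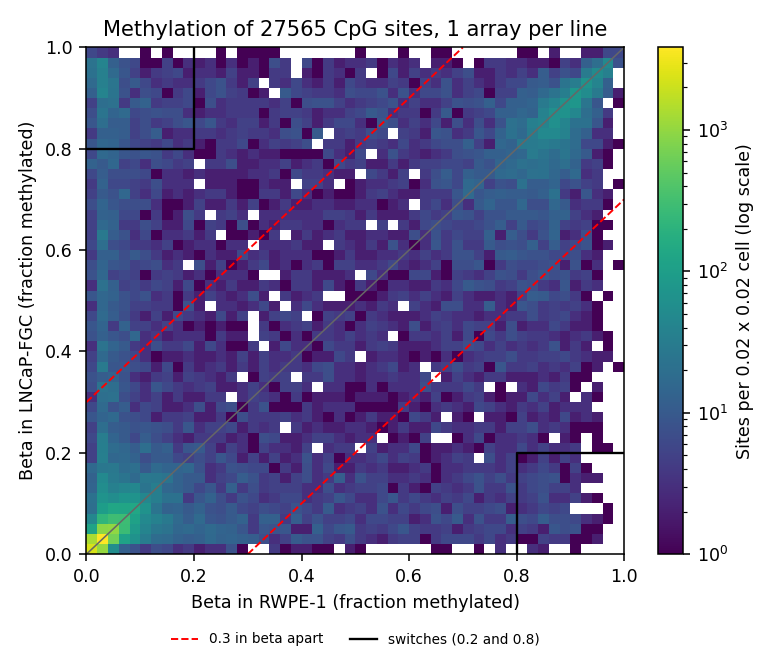
Beta in LNCaP-FGC (vertical axis) against beta in RWPE-1 (horizontal axis) for 27565 CpG sites, shaded by the number of sites per cell on a log scale. Dashed lines mark sites 0.3 apart, and the boxes in the corners hold the 873 sites above 0.8 in LNCaP-FGC and below 0.2 in RWPE-1, and the 274 with the reverse.

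Switches were the smaller part of the differences in both directions. They were defined as sites with a beta below 0.2 in one line and above 0.8 in the other. LNCaP-FGC was methylated and RWPE-1 unmethylated at 873 sites (3.17%), and the reverse held at 274 sites (0.994%). Switches made up 27.1% of the gains and 13.5% of the losses. At the 873 switched gains the median was 0.0472 in RWPE-1 and 0.902 in LNCaP-FGC. At the 274 switched losses it was 0.861 in RWPE-1 and 0.0991 in LNCaP-FGC. Graded differences made up the rest, with 2349 gains (8.52%) and 1753 losses (6.36%). With the betas of all 4 arrays quantile normalized there were 1992 graded gains and 2248 graded losses, so their order turned. With linear rescaling there were 2368 graded gains and 1719 graded losses, and the order was kept.

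The larger number of switched gains went with the larger number of sites that could make them. RWPE-1 was unmethylated at 17996 sites and methylated at 3649. Of the unmethylated sites 4.85% were methylated in LNCaP-FGC, and of the methylated sites 7.51% were unmethylated in LNCaP-FGC. Relative to where a site stood in RWPE-1, a complete loss was thus the more frequent switch. The same order held with the limits of a switch at 0.3 and 0.7, where the shares were 7.52% and 13.5%. It did not hold at 0.1 and 0.9, where they were 2.31% and 2.25%. After quantile normalization the shares were 4.50% and 7.97%.

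Gained sites came mostly from a low level and ended near the top of the scale. Over all 3222 gains the median beta was 0.0892 in RWPE-1 and 0.791 in LNCaP-FGC, and 48.2% of them were above 0.8 in LNCaP-FGC. The most populated levels were 0.8 to 0.9, with 796 gained of 2396 sites, and 0.9 to 1, with 756 of 1648. Lower levels held fewer gained sites, down to 141 of 940 at 0.3 to 0.4, and by the 0.3 rule none could lie lower. The lower levels down to 0.3 also held fewer sites in all. At 0.5 to 0.6 the gained sites were 356 of 1049, a share close to that at 0.8 to 0.9. In counts, though not in shares, lost sites were the mirror image at the other end. They had a median of 0.758 in RWPE-1 and 0.168 in LNCaP-FGC, and 55.9% of them were below 0.2 in LNCaP-FGC. Below 0.1 in LNCaP-FGC 635 of 14762 sites were lost, and at 0.1 to 0.2 499 of 2068, a larger share. Losses nevertheless tended to be smaller than gains. A difference of at least 0.7 was found at 966 sites in the direction of gain and at 277 in the direction of loss, which are 30.0% of gains and 13.7% of losses. Set against the sites with room for a difference of the given size, the order turned with the size. At least 0.3 was lost at 23.7% of such sites and gained at 14.3%, and at least 0.5 was lost at 13.4% and gained at 9.29%. At 0.7 the shares were 5.49% lost and 5.08% gained. At 0.9 they were 0.241% lost and 1.26% gained.

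**Figure D2:**
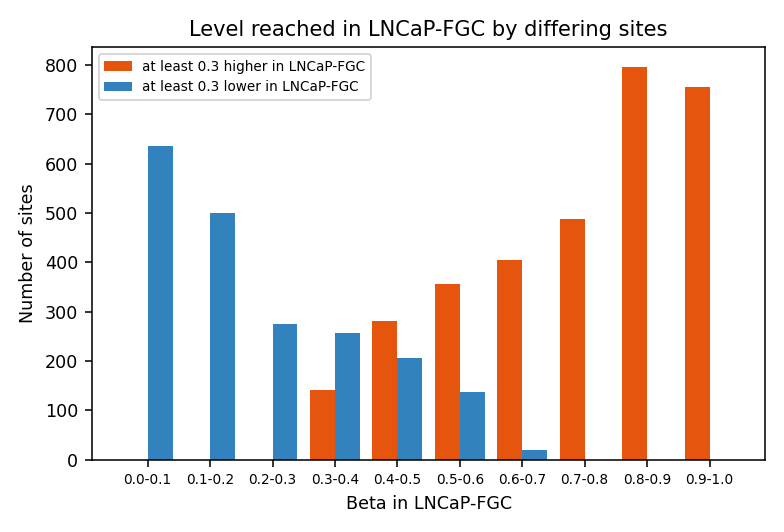
Number of CpG sites by their beta in LNCaP-FGC, in steps of 0.1, for sites at least 0.3 higher (orange) or at least 0.3 lower (blue) than in RWPE-1. Gained sites are most numerous at 0.8 to 0.9 (796 of 2396 sites at that level) and lost sites below 0.1 (635 of 14762).

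The level in RWPE-1 told how far a site was likely to be from its level in LNCaP-FGC. Sites below 0.1 in RWPE-1 were the most alike: 86.9% of these 16213 sites were below 0.2 in LNCaP-FGC as well, and the middle 50% of their LNCaP-FGC betas spanned only 0.0440. The adjoining 1783 sites, at 0.1 to 0.2 in RWPE-1, were much more varied. Gains were found at 30.9% of them against 10.5% below 0.1, and the middle 50% of their betas in LNCaP-FGC spanned 0.469. The span was widest for sites at 0.5 to 0.6 in RWPE-1, at 0.594, and their median in LNCaP-FGC was 0.529. At the top, sites at 0.9 to 1 in RWPE-1 had a median of 0.890 in LNCaP-FGC and a span of 0.172, and 17.3% of them were lost. Sites at 0.8 to 0.9 had a median of 0.779 and were lost at 24.9%.

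**Figure D3:**
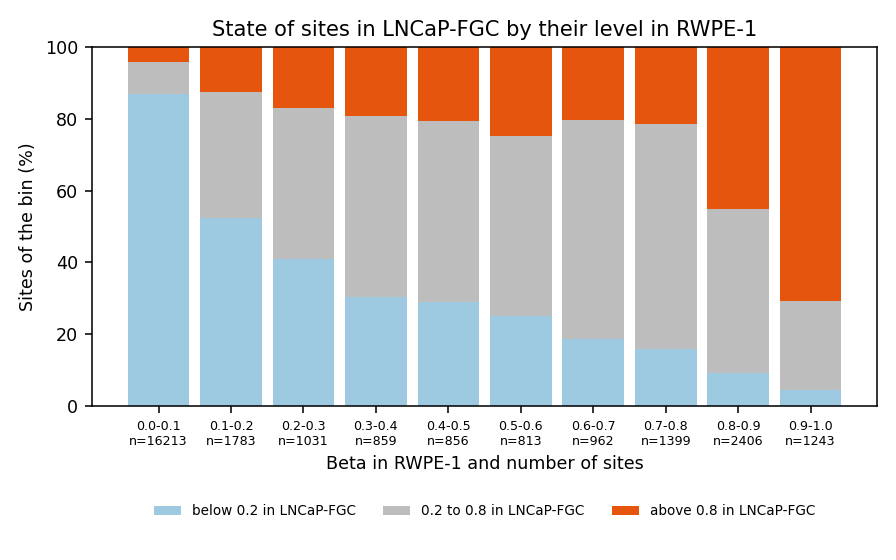
Share of CpG sites below 0.2, from 0.2 to 0.8 and above 0.8 in beta in LNCaP-FGC (stacked to 100%), by their beta in RWPE-1 in steps of 0.1, with the number of sites under each bar. The bar for 0 to 0.1 in RWPE-1 is 86.9% below 0.2 in LNCaP-FGC, and that for 0.9 to 1 is 70.6% above 0.8.

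Sites of intermediate level in RWPE-1 differed in both directions. Of 5920 such sites, 53.6% were intermediate in LNCaP-FGC too, 25.9% (1536 sites) were unmethylated and 20.5% (1211 sites) were methylated. Crossing a class limit did not always mean a large difference. A difference of at least 0.3 was present at 860 of the 1536 and at 679 of the 1211 sites. Even where both lines were intermediate, 648 of 3173 sites were at least 0.3 apart. Sites methylated in RWPE-1 and intermediate in LNCaP-FGC numbered 1415, with a median of 0.863 in RWPE-1 and 0.642 in LNCaP-FGC, and 38.2% of them were at least 0.3 apart. In the opposite direction, 2103 sites were unmethylated in RWPE-1 and intermediate in LNCaP-FGC, with medians of 0.0609 and 0.470, and 65.4% of them were at least 0.3 apart.

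The site with the largest gain, cg06819200, had a beta of 0.991 in LNCaP-FGC and 0.00479 in RWPE-1. DU145 and PC3 had 0.00253 and 0.0149, so the site was at the top of the scale on the LNCaP-FGC array and near 0 on the other arrays. The site with the largest loss, cg19964192, had 0.0257 in LNCaP-FGC and 0.959 in RWPE-1, with 0.810 in DU145 and 0.8996 in PC3. Among graded differences, cg21086464 had the largest gain, from 0.0101 in RWPE-1 to 0.799 in LNCaP-FGC. It fell just short of the upper limit for a switch. The largest graded loss was at cg15408454, with 0.785 in RWPE-1 and 0.0223 in LNCaP-FGC, again just short of the limit in RWPE-1. These 4 sites were picked for their size. The files do not pair the sites with genes.

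Expression was compared over 29255 of 48803 probes, those above the median intensity of their array in at least 1 of the 2 lines. The median raw intensity, 182 in LNCaP-FGC and 151 in RWPE-1, served as the limit of background, since the table used here has no detection p-values. Of all probes, 40.1% were above this limit on both arrays and 40.1% on neither. A limit at each array's own median makes these shares equal by definition. None of the probes above it on neither array was 2-fold apart, but there was little room for it. The lowest raw intensity was 98.4 in LNCaP-FGC and 93.9 in RWPE-1, not far below the limits. After background correction and normalization, 79.1% of the probes compared were within 2-fold and 62.4% within 1.5-fold. The lines were at least 2-fold apart at 6120 probes (20.9%), with 3042 (10.4%) higher and 3078 (10.5%) lower in LNCaP-FGC. The split stayed near equal when the arrays were scaled to a common median instead of quantile normalized, with 3044 higher and 3002 lower probes. Both ways bring the arrays to a common level, so neither could show an overall shift between the lines. The split by raw intensities was not counted.

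**Figure D4:**
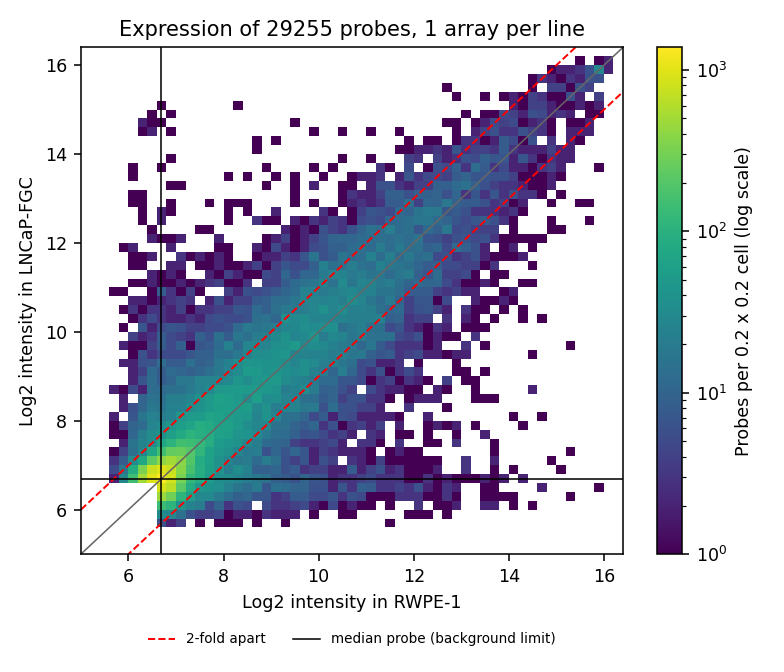
Log2 intensity in LNCaP-FGC (vertical axis) against RWPE-1 (horizontal axis) for 29255 probes, shaded by the number of probes per cell on a log scale. Dashed lines mark a 2-fold difference and solid lines the median probe of each array, below which a probe counted as background.

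Graded differences, with both lines above background, made up 75.9% of the 6120 probes. They numbered 2436 higher (8.33%) and 2211 lower (7.56%) in LNCaP-FGC, with median differences of 2.82-fold and 2.90-fold. Switches made up the remaining 24.1%. In LNCaP-FGC 606 probes were above background and 2-fold higher while RWPE-1 was at background (2.07%), and 867 probes showed the reverse (2.96%). These counts were 382 and 558 without background correction and 1077 and 1456 with a smaller offset of 16. Switched probes were mostly of moderate brightness. The median raw intensity of the 606 probes was 350 in LNCaP-FGC and 134 in RWPE-1, and that of the 867 probes was 162 in LNCaP-FGC and 351 in RWPE-1. Only 12.7% of the probes switched on and 19.7% of those switched off were among the brightest 10% of probes on the array where they were present.

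The level of the dim array is not known below background, so the fold of a switch was also taken against the median of that array. This fold depends on the background correction and is not a fixed lower limit. With the correction used here it reached 2 for 452 of the 606 probes switched on and for 647 of the 867 switched off, with medians of 2.70 and 3.03. For the same probes without background correction the medians were 2.05 and 2.25. Large switches were more often off than on in LNCaP-FGC. The fold against background reached 16 at 50 probes switched on and 124 switched off, and without background correction at 32 and 85. As a plain ratio of raw intensities, without normalization, it reached 16 at 36 and 63. It reached 64 at 14 probes switched on and 31 switched off, but at 12 and 10 as a ratio of raw intensities, so the order of the very largest switches was not settled.

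The excess of large differences on the low side was also present among graded probes. At least 8-fold apart were 172 probes graded higher and 254 graded lower, and at least 32-fold apart were 18 and 49. Switches and graded differences together, by measured fold, gave 299 probes at least 8-fold higher and 501 at least 8-fold lower. Across the other background corrections, normalizations and the deposited log2 values, the higher count ran from 194 to 426 and the lower count from 366 to 646, and the lower count was the larger in each of these settings. In these settings the 2 lines had nearly equal numbers of 2-fold differences in both directions, but RWPE-1 held more of the probes at least 8-fold above the other line. Counts by the plain ratio of raw intensities are given here for switches only. Whether the excess among graded probes holds by that ratio was not tested.

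**Figure D5:**
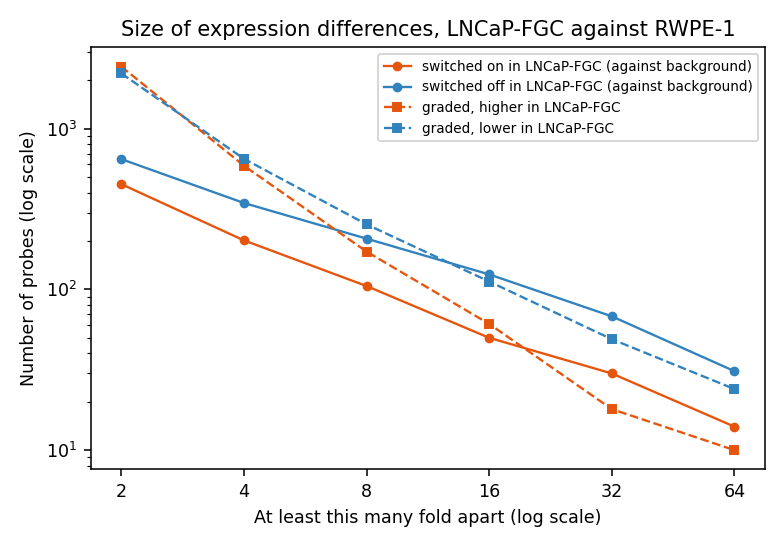
Number of probes (vertical axis, log scale) at least 2, 4, 8, 16, 32 or 64-fold apart (horizontal axis, log scale), for probes switched on or off in LNCaP-FGC (fold against the median of the dim array) and for graded differences. At 16-fold the counts are 50 switched on, 124 switched off, 61 graded higher and 112 graded lower.

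The line between a switch and a graded difference was not sharp. Many graded probes were only just above background on the dimmer array. Of the probes higher in LNCaP-FGC, 777 lay between the median and the 75th percentile of the RWPE-1 array and 1659 lay above that percentile. Of those lower, 723 and 1488 lay in these zones of the LNCaP-FGC array. Differences between 2 clearly present levels were smaller with the background correction used here. Above the 75th percentile on the dimmer array, the median difference was 2.74-fold for higher probes and 2.78-fold for lower ones, and 21 and 34 probes reached 16-fold. The largest such differences were 108-fold higher and 92.9-fold lower. In the deposited log2 values the median differences of switched and of all graded probes were close. They were 1.295 for probes switched on and 1.325 for those graded higher, and -1.39 for those switched off and -1.36 for those graded lower. With background set at the 75th percentile, 42.8% of the 2-fold differences were switches.

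The brighter a probe, the more often it differed, up to a point, in a pattern partly set by the rules. Ranked by mean log2 intensity over both lines and split into 5 equal groups, 1.98% of the dimmest probes and 3.76% of the next group were 2-fold apart. The share was 21.3% in the middle group, 40.1% in the fourth and 37.4% in the brightest. Switches were most frequent in the middle group, at 12.6% of its probes, and made up 0.701% of the brightest group, where graded differences reached 36.7%. A graded probe has both lines above the median log2 of 6.68 and 2-fold apart. The groups with a mean log2 up to 6.98 could therefore hold none. A switch has 1 line at background, which keeps most switches out of the brightest group. Few probes were near the top of the intensity range: 49 in LNCaP-FGC and 21 in RWPE-1 exceeded 60000.

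The probe with the largest switch on by its fold against background, ILMN_1801832, had a raw intensity of 31136 in LNCaP-FGC and 145 in RWPE-1. Its fold against the background of the RWPE-1 array ran from 175 to 435 over the settings tried. It was 164 in DU145 and 7298 in PC3, so PC3 also had the signal. The largest switch off was at ILMN_1666845, with 167 in LNCaP-FGC and 62267 in RWPE-1. Its fold against the background of the LNCaP-FGC array ran from 342 to 937. That RWPE-1 value lay near the top of the array's range, and DU145 and PC3 had 209 and 1184. The largest graded difference upwards was at ILMN_1662932, with 36508 in LNCaP-FGC and 154 in RWPE-1. The largest downwards was at ILMN_2206746, with 202 in LNCaP-FGC and 29731 in RWPE-1. Both were barely above the background limit on their dim array, so their folds of 340 and 299 depend on the processing as those of switches do, and ran from 202 to 501 and from 147 to 413. In the authors' deposited table their log2 differences were 7.66 and -7.55, against 8.41 and -8.23 here. The files do not pair these probes with genes.

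The deposited log2 values gave the same directions with smaller sizes. Of the probes 2-fold higher and 2-fold lower here, 79.1% and 79.7% were at least 2-fold apart the same way in that table, and none had the opposite sign. The share was lowest for switches, at 67.7% for those on and 68.5% for those off. It was 81.9% and 84.1% for graded differences. The median difference of the probes switched on was 1.79 on the log2 scale here and 1.295 in the authors' deposited table.

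DU145 and PC3 were compared with the same RWPE-1 arrays, so the 3 comparisons are not independent, and with 1 array per line their differences could not be tested. In methylation, LNCaP-FGC had 873 switched gains against 760 in DU145 and 534 in PC3. It had 274 switched losses against 42 and 127. Of the sites methylated in RWPE-1 the switched losses were 7.51% in LNCaP-FGC, 1.15% in DU145 and 3.48% in PC3. These counts are for the betas as deposited. After quantile normalization LNCaP-FGC had 352 switched losses, and the counts of DU145 and PC3 are not given for that setting. In expression, switches made up 24.1% of the 2-fold differences in LNCaP-FGC, 19.0% in DU145 and 17.0% in PC3. Probes switched off numbered 867 in LNCaP-FGC, 660 in DU145 and 552 in PC3, and probes switched on 606, 590 and 554. The counts for probes switched on were thus closer together than those for probes switched off.

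Methylation and expression could not be compared gene by gene, because neither kind of identifier is paired with a gene in the tables used here. Whether switched gains of methylation lie at genes whose probes were switched off was therefore not examined.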

How the data were processed

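Genomic DNA was bisulfite-converted and total RNA was labelled as biotin-cRNA for Illumina beadchips, per the labels' protocols. The authors deposited methylation as beta values (a fraction from 0 to 1) and expression as probe intensities from BeadStudio 3.1.3, as the series' design text states, without background subtraction or normalization as far as the values show. The authors' deposited log2 table differed from quantile-normalized log2 raw intensities by at most 0.0888 and by 0.0114 at the median. How it was made is not given in the sources.

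Intensities of all 4 expression arrays were corrected with limma 3.58.1 (normexp, offset 50) in R 4.3.3 and quantile normalized. Probes above their array's raw median in either line were compared. Betas were used as deposited, without 5 sites blank in LNCaP-FGC and 8 in RWPE-1. Switches to or from background used the raw median, and folds against background used the normalized median. The size rules were run on simulated data with planted differences well beyond the limits. That checks that the rules work as written and says nothing on the error of single arrays. Each line has 1 array per assay, so no test was made, and the number of arrays limits the precision. Column names gave each column's sample. The probes and sites named were the largest in each class, among probes also 2-fold the same way in the deposited table. Switched probes were ranked by their fold against background. The comparison and its rules were chosen with earlier results of these data known. The gene lists and cell type markers set down for this comparison (14 lists) could not be used without gene names.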

Additional observations from a re-analysis of the deposited data

How the results depend on the processing

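Switched-off probes outnumbered switched-on ones, and gained sites outnumbered lost ones, in every alternative run. For graded sites alone the order turned with quantile normalization of the betas, with 1992 higher and 2248 lower. The order of probes 2-fold higher and lower, 3042 and 3078, turned with common-median scaling (3044 and 3002), with a stricter filter (2899 and 2870) and at 1.5-fold. Of 100 alternative counts, 74 stayed within 1.5 times the reported one. The 26 that did not came from other sizes, other limits or another background correction. Some of the 74 could not move. Methylation switches were the same 873 and 274 at 0.2 and 0.5 in beta by their definition. Leaving out the filter changed no expression count, since no probe at background on both arrays was 2-fold apart. At 4-fold, 840 probes were higher and 1053 lower (251 switched on, 403 off, 589 graded higher, 650 graded lower). At 1.5-fold, 5617 were higher and 5383 lower (1290 on, 1680 off, 4327 and 3703 graded). Switches were the results most affected by the background. Without background correction 382 probes were switched on and 558 off, and with an offset of 16 they were 1077 and 1456. With the background limit at the 75th percentile 1240 were on and 1382 off. At 0.5 in beta, 1926 sites were gained and 915 lost (1053 and 641 of them graded). With switch limits of 0.1 and 0.9, 374 sites switched to methylated and 28 to unmethylated, and with 0.3 and 0.7 they were 1431 and 680. The 4 named probes kept their direction, but their folds in the deposited table were 182, 428, 202 and 187 in place of 311, 728, 340 and 299. The 4 named sites stayed within 1.5 times their beta difference. The folds of switches against background under other settings, and those of raw intensities, were added after seeing the data. Alternatives for gene lists were not run, since no probe has a gene name here. No paired analysis was possible because each line has 1 array per assay. Probes near background are the least certain, as the array gives no detection p-value here.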
